A study of Mus musculus with 2 samples.

Results

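The genes described here are the fibroblast growth factor (FGF) ligands, their receptors, and the inhibitors and transcription factors that FGF signalling switches on. They were taken by symbol from both deposited tables: every numbered Fgf gene, Fgfr1 to Fgfr4, Fgfrl1, the Sprouty (Spry) and Spred genes, Etv1, Etv4, Etv5, Dusp6 and Il17rd. The rule matched 39 of 22072 genes, held in 53 of 28107 transcript rows. RNA came from the tongue at embryonic day 12 in mice of mixed background, with 1 library per genotype. Embryos of the control library (Osr1f/+) had 1 conditional and 1 wild-type allele of Osr1, and the label names no Cre. Those of the mutant library (Osr1f/-; Wnt1cre) had 1 conditional allele, a null allele in place of the wild-type one, and the Wnt1cre transgene. The Wnt1 promoter drives Cre in the neural crest, from which the connective tissue of the tongue derives, while its muscle precursors and epithelium have other origins, so Cre acted on Osr1 in part of the tissue only. The null allele was present in every cell of the mutant embryos. Tissue was pooled before RNA extraction, from 3 pairs of control and mutant samples per the design text, so the spread between embryos is not known. No test between genotypes was possible, and every ratio compares 2 libraries. In bulk tissue, fewer cells of a type and less RNA per cell cannot be told apart.

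FGFs are secreted proteins that bind receptor tyrosine kinases together with heparan sulfate, and the bound receptor signals through RAS to the kinase ERK. ERK signalling turns on the transcription factors Etv1, Etv4 and Etv5 as well as inhibitors that dampen the same pathway, among them the Sprouty proteins, Dusp6 and Il17rd. In oral and craniofacial tissue, FGFs pass between epithelium and mesenchyme in both directions: the FGF7 subfamily is made mainly by mesenchyme and acts on epithelium, while the FGF9 and FGF8 subfamilies act mainly on mesenchyme.

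Which ligand a receptor binds depends on 1 alternative exon that encodes the end of the third immunoglobulin-like domain, called IIIb in the epithelial form and IIIc in the mesenchymal form. The IIIb exons are shown because the tables list the forms of Fgfr2 and Fgfr3 as separate transcripts. They were read from the GENCODE transcripts of build GRCm38 that are linked to the RefSeq accessions of the deposited rows. Every Fgfr1 row in the tables held the IIIc-type exon, and no row held a IIIb exon of Fgfr1. In the IIIb exons, capitals mark the 85 bases that were the same in a global alignment of the pair.
Fgfr2 IIIb: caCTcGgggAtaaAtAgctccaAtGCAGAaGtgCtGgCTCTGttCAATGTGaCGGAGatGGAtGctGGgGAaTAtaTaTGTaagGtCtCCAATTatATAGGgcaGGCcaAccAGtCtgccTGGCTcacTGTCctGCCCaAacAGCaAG
Fgfr3 IIIb: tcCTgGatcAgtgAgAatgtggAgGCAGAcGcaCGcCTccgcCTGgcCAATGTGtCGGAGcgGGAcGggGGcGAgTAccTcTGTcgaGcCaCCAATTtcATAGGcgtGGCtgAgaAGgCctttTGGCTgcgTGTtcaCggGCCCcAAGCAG
The IIIb exons of Fgfr2 and Fgfr3 were 54.8% identical over their alignment.

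Levels are given as FPKM, the fragments scaled by transcript length and by sequencing depth, with the control value first. A gene was counted as measured at 1 FPKM or more in either library, which 25 of the 39 genes reached, among 12383 measured genes in all. Behind these values stood about 18900000 mapped reads (control) and 23100000 (mutant), estimated from the deposited coverage. At that depth 3 reads on a transcript of 1 kb correspond to 0.159 FPKM and 0.130 FPKM. Each ratio is mutant FPKM over control FPKM, with a 95% interval from the estimated reads that covers counting error only. Osr1, the targeted gene, had 56.8 and 18.4 FPKM, a ratio of 0.325 (interval 0.300 to 0.352), so the labels and the data pointed the same way. The tables do not show whether the remaining Osr1 RNA came from intact or recombined alleles. Markers of the labelled tissue were present in both libraries, with 10 of 11 skeletal muscle genes, 5 of 5 mesenchyme genes and 14 of 14 epithelial genes measured.

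Most measured FGF genes of the tongue differed by less than 1.2-fold between the libraries, as did most measured genes in general. On the scale of FPKM plus 1, 2 of the 25 measured genes were at least 1.2-fold higher in the mutant library (Fgf7 and Spry3), and 4.77% of all measured genes were as well. At least 1.2-fold lower were 2 (Fgf18 and Fgf15), and 3.46% of all measured genes. Spry3 passed the filter on low values only through the mutant library and Fgf15 only through the control library. Just inside the 1.2-fold line was Spry3 at 1.23-fold, and just outside it were Etv4 at 1.198-fold, Fgfr2 at 1.197-fold, Spred3 at 1.196-fold and Spry2 at 1.195-fold. The counts moved to 5 higher and 4 lower with a pseudocount of 0.1 FPKM in place of 1, and at 1.5-fold both counts were 0. The median log2 ratio was 0.03 over the 25 genes and 0.00 over all measured genes.

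The counting interval lay above a ratio of 1 for 8 of the 25 genes (Fgf7, Fgfr2, Fgfrl1, Spry2, Spry3, Spred3, Il17rd and Etv1), and 10.8% of all measured genes did so. It lay below 1 for 7 (Fgf9, Fgf15, Fgf18, Fgfr4, Spry4, Dusp6 and Etv4), and 10.3% of all measured genes did so. These shares of all measured genes are the background for every count of intervals given below. The other 10 genes had intervals that held 1. Spry3 and Fgf15 entered these counts with 1 FPKM reached only in the library where each was higher. With or without Spry3 and Fgf15, the FGF genes were thus split between the directions at every level of the pathway. Ligands, receptors, inhibitors and transcription factors each had genes on both sides. Over the 25 genes the median absolute log2 ratio was 0.19, against 0.07 over all measured genes. Among genes of at least 5 FPKM in the control library it was 0.15 over 16 FGF genes and 0.06 over 8783 genes. The interval left 1 for 62.5% and 22.1% of them. That cut used the control library alone, so it kept Fgf18 (5.28 and 3.57 FPKM) and left out Fgfr3 (4.90 and 5.10 FPKM). The FGF genes were also chosen with earlier results of these data known.

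**Figure D1:**
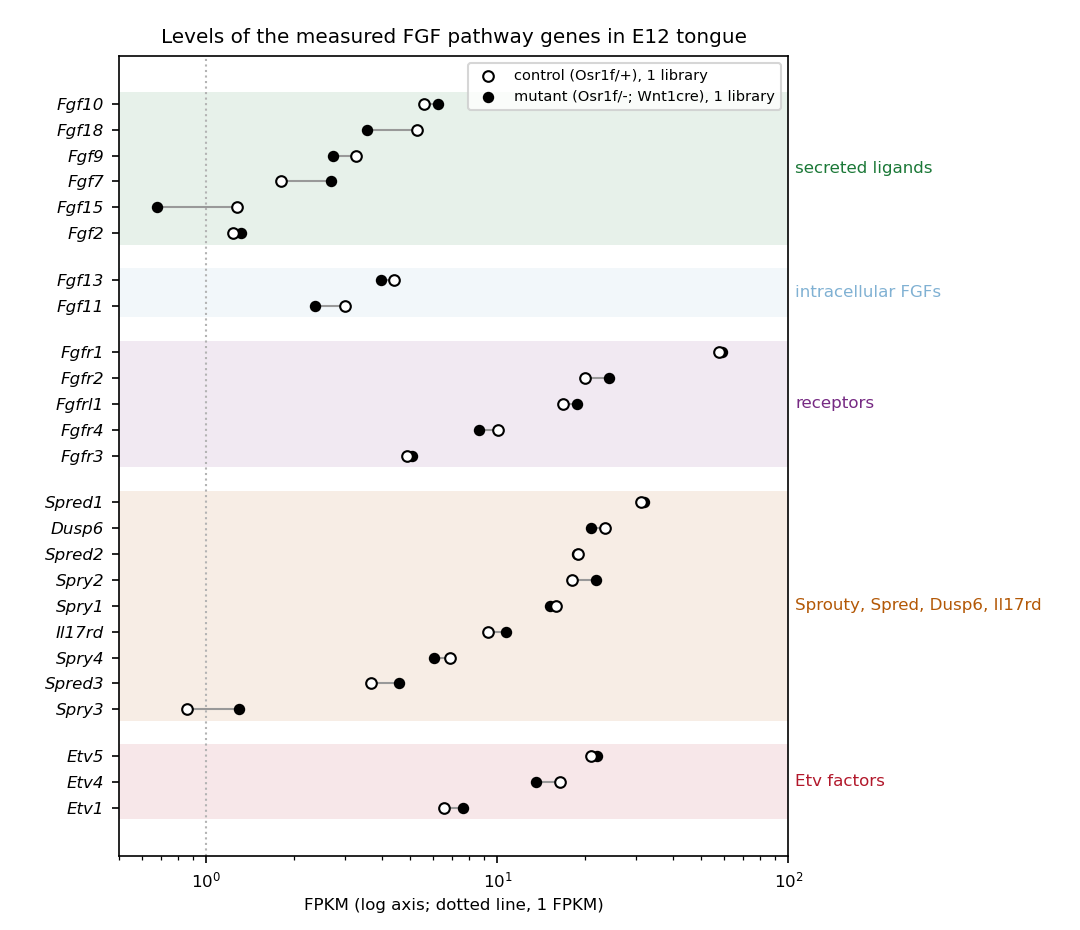
FPKM of the 25 measured FGF pathway genes (log axis) in the control library (open circles) and the mutant library (filled circles), grouped by role. Fgfr1 is the highest gene at 57.7 and 59.1 FPKM, Spred1 the highest inhibitor at 31.2 and 31.8 FPKM, and Fgf10 the highest ligand at 5.60 and 6.24 FPKM.

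**Figure D2:**
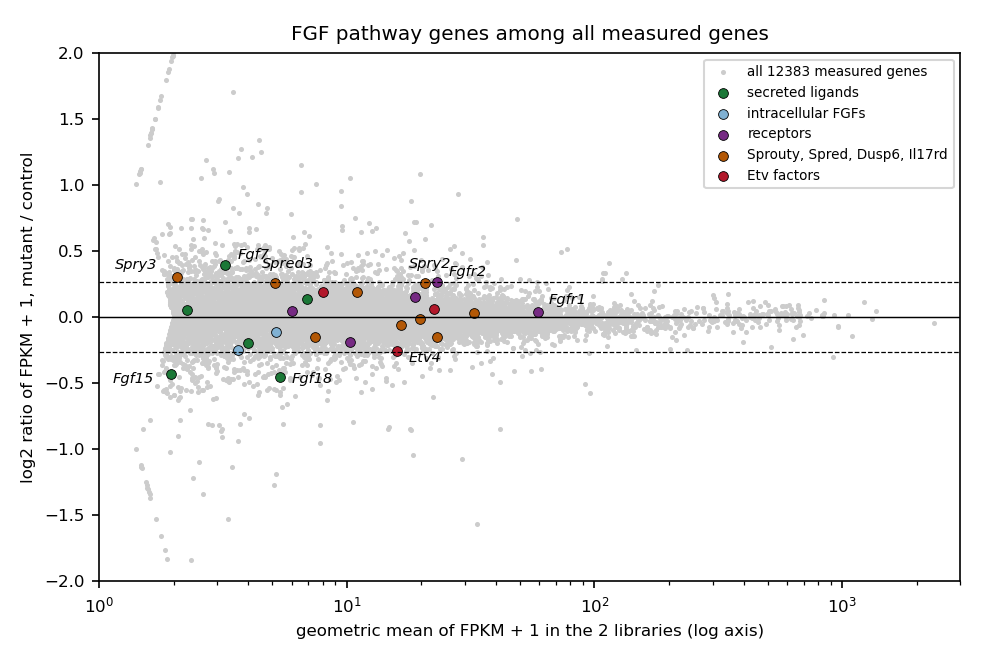
The log2 ratio of mutant over control FPKM plus 1 for all 12383 measured genes (grey; 21 lie outside the axis) against the geometric mean of FPKM plus 1 (log axis), with the FGF genes in colour. Dashed lines mark 1.2-fold: Fgf7 and Spry3 lie above them, Fgf18 and Fgf15 below, and Fgfr2, Spry2, Spred3 and Etv4 lie at the lines.

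Of the 18 secreted ligands, 6 were measured, and none reached 7 FPKM in either library. The 18 together had 21.0 FPKM (control) and 20.7 FPKM (mutant), against 92.7 and 97.1 FPKM for the 4 kinase receptors. Fgf10 is the mesenchymal ligand that binds Fgfr2 IIIb and is required for outgrowth of several epithelial organs. Fgf10 had the highest ligand level, 5.60 FPKM and 6.24 FPKM, above 32.1% of measured genes in the control. Its ratio of 1.11 had an interval of 0.989 to 1.25, which held 1. Fgf10 lay on chromosome 13 (mm9, 119503506 to 119581380).

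Fgf7, the other measured ligand of the same subfamily and also a mesenchymal ligand of Fgfr2 IIIb, was higher in the mutant library. Its level was 1.81 FPKM from about 91 reads (control) and 2.69 FPKM from about 166 reads (mutant), a ratio of 1.48 (interval 1.14 to 1.94). The Fgf7 model on chromosome 2 (mm9, 125860394 to 125916921) overlaps the model of 4930525F21Rik, so its reads could have been split between them. Fgf7 and Fgf10 thus both had ratios over 1, and the interval left 1 for Fgf7 alone.

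Fgf18 belongs to the FGF8 subfamily and is known for its part in cartilage, bone and palate development. It was lower in the mutant library, at 5.28 FPKM from about 108 reads (control) and 3.57 FPKM from about 90 reads (mutant). The ratio was 0.677 (interval 0.506 to 0.904), and the gene lay on chromosome 11 (mm9, 33017431 to 33047400). Fgf18 was the second ligand by level in the control, below Fgf10, and its level in the mutant library stayed above that of Fgf9.

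Fgf9 is an epithelial ligand that signals to mesenchyme through IIIc receptors (mm9 chromosome 14, 58691523 to 58731557). Its level was 3.27 FPKM and 2.73 FPKM, a ratio of 0.835 whose interval of 0.6998 to 0.996 ended just under 1. Fgf15, a hormone-like FGF also made in embryonic neural tissue and pharyngeal epithelium, had 1.27 FPKM (control) and 0.679 FPKM (mutant). Those values rest on about 43 and 28 reads, and the ratio was 0.534 (interval 0.320 to 0.880). Fgf15 reached 1 FPKM in the control library only. Fgf2, a broadly acting FGF without a classical signal peptide, had 1.24 FPKM and 1.31 FPKM from about 16 and 21 reads. Its interval of 0.528 to 2.18 was too wide to show a difference of the size seen for Fgf18 or Fgf7.

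**Figure D3:**
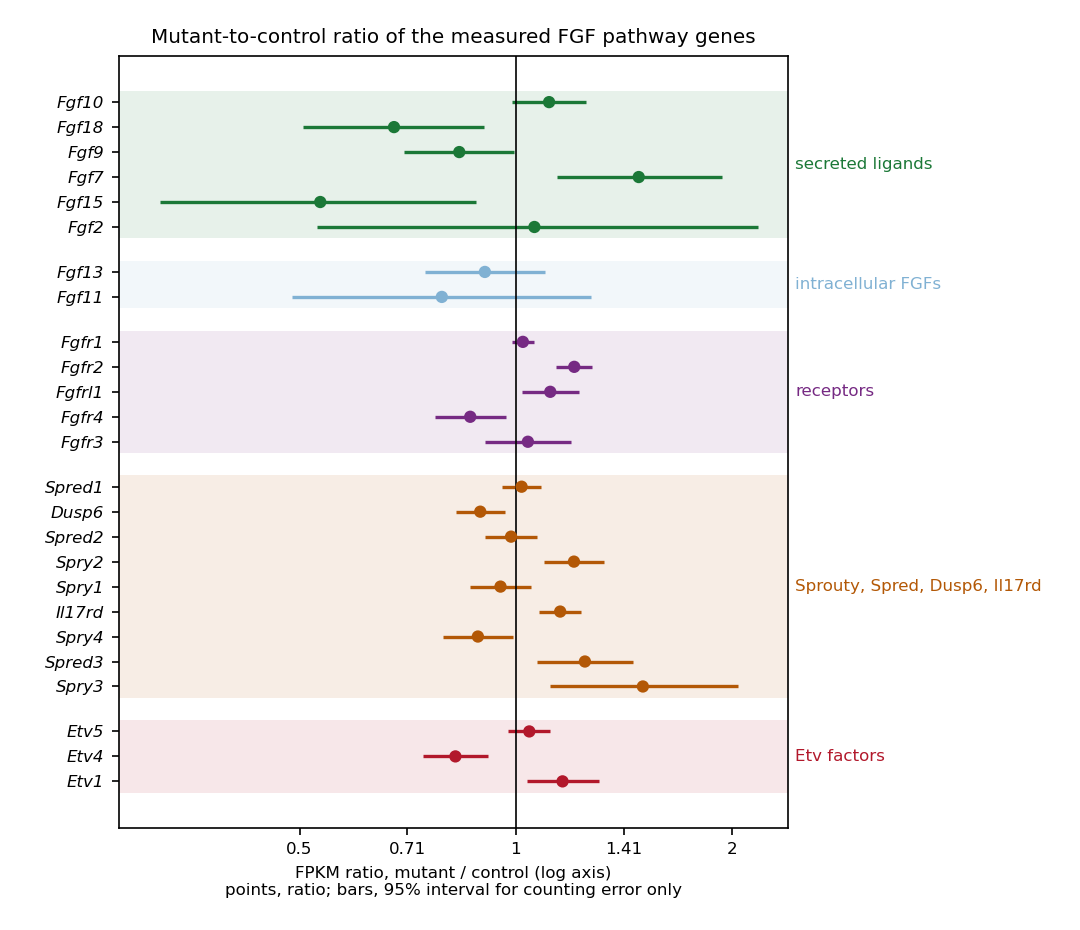
Ratio of mutant to control FPKM (log axis) for each measured FGF pathway gene, with the 95% interval for counting error as a bar. Fgf7 and Spry3 sit farthest to the right at 1.48 and 1.505, and Fgf15 and Fgf18 farthest to the left at 0.534 and 0.677. The bar of Fgfr1, from 0.988 to 1.06, is short and that of Fgf2, from 0.528 to 2.18, is long.

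The other 12 ligands stayed under 1 FPKM in both libraries. Fgf8, an early ligand of pharyngeal and oral epithelium, had 0.367 FPKM from about 7 reads and 0.892 FPKM from about 21 reads. Its ratio of 2.43 had an interval of 0.996 to 6.77, so a difference was not detectable at this depth. Fgf1 had 0.652 FPKM from about 48 reads and 0.947 FPKM from about 86 reads, in a model that overlaps Gm5820. The Fgf1 ratio of 1.45 had an interval of 1.009 to 2.11, just above 1, but Fgf1 was under the filter and not counted. Fgf5 had 0.620 and 0.677 FPKM, and Fgf6, an FGF of developing muscle, had 0.343 and 0.378 FPKM. These 4 were the highest of the genes that were not measured.

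Fgf4 had 0.138 and 0.0645 FPKM, Fgf17 had 0.1201 and 0.117 FPKM, Fgf20 had 0.110 and 0.0302 FPKM, and Fgf16 had 0.0191 and 0.128 FPKM. Each of these rested on fewer than 10 reads in either library. Fgf3 was listed at 0.0868 FPKM (control) and at 0 (mutant), where 3 reads would give 0.109 FPKM. Fgf21, a metabolic hormone, was listed at 0.0976 FPKM and at 0, where 3 reads would give 0.137 FPKM. Fgf22 and Fgf23, the latter a hormone of phosphate balance, were at 0 in the control and at 0.203 and 0.0957 FPKM in the mutant library. In the control 3 reads would give 0.325 FPKM for Fgf22 and 0.0877 FPKM for Fgf23. On chromosome 7, Fgf3, Fgf4 and Fgf15 lay side by side, 18.0 kb and 31.3 kb apart, and among these neighbours only Fgf15 was measured.

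Fgf11, Fgf12, Fgf13 and Fgf14 are intracellular FGF homologous factors, which are not secreted and bind voltage-gated sodium channels, mostly in neurons. Fgf13 had 4.396 FPKM and 3.98 FPKM, a ratio of 0.906 (interval 0.748 to 1.10), in a model that overlaps Mir504. Fgf11 had 2.99 FPKM and 2.36 FPKM from about 38 and 37 reads, a ratio of 0.789 (interval 0.488 to 1.28). Both values were lower in the mutant library, and both intervals held 1. Fgf12 had 0.253 and 0.219 FPKM, in a model that overlaps Mir690, and Fgf14 had 0.0960 and 0.0839 FPKM. Of 9 sodium channel subunits only Scn3a was measured, and its 1.796 and 1.48 FPKM gave a ratio of 0.825 (interval 0.706 to 0.965).

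Markers of neurons were lower on balance beside these genes. Of 14 neuron genes 10 were measured, with a median log2 ratio of -0.26 and a summed level of 56.0 FPKM (control) and 47.8 FPKM (mutant). The ratio was under 1 for 6 of the 10, and 5 had intervals below 1. The tubulin Tubb3, at 6.33 and 3.16 FPKM, and the growth cone gene Gap43, at 16.3 and 13.2 FPKM, were lower in the mutant library. Dcx, a microtubule gene of young neurons, was higher at 8.79 and 11.6 FPKM, and the neurofilament gene Nefm had 4.79 and 5.26 FPKM. The list was thus mixed, and its lowest log2 ratio, -1.84, belonged to the synaptic gene Snap25, at 3.45 and 0.239 FPKM. No marker was at 0 in both libraries, and 4 stayed under 1 FPKM. The part of neuronal RNA in the values of Fgf11, Fgf13 and Fgf15 was not tested.

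All 5 receptors were measured, and the order of their levels was the same in both libraries: Fgfr1, Fgfr2, Fgfrl1, Fgfr4 and Fgfr3. Fgfr1, the main receptor of craniofacial mesenchyme, had 57.7 FPKM and 59.1 FPKM, above 93.1% of measured genes in the control. Its ratio was 1.02 (interval 0.988 to 1.06). Fgfr1 held 62.3% (control) and 60.9% (mutant) of the FPKM of the 4 kinase receptors. It lay on chromosome 8 (mm9, 26629244 to 26686186).

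Fgfr2, which receives Fgf7 and Fgf10 in epithelium through its IIIb form, was the kinase receptor with the highest ratio. Its level was 20.1 FPKM from about 1918 reads (control) and 24.2 FPKM from about 2843 reads (mutant). The ratio was 1.21 (interval 1.14 to 1.28), and its share of the kinase receptor FPKM was 21.6% and 25.0%. Fgfr2 lay on chromosome 7 (mm9, 137305965 to 137410322).

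Fgfr4, a receptor known from muscle progenitors (mm9 chromosome 13, 55254179 to 55270120), was lower in the mutant library, at 10.01 and 8.66 FPKM. Its ratio was 0.865 (interval 0.772 to 0.969) and its share of the receptor FPKM 10.8% and 8.92%. Beside it, the 10 measured muscle genes had 5 ratios over 1, 5 under 1 and a median log2 ratio of -0.01. Intervals lay above 1 for 3 and below 1 for 1, while 0 genes were at least 1.2-fold higher and 2 as much lower (Pax3 and Lbx1). Of all measured genes, 4.77% were as much higher and 3.46% as much lower. Among the factors of muscle precursors, Pax3 had 2.91 and 1.84 FPKM, a ratio of 0.631 (interval 0.510 to 0.780). Lbx1 had 6.36 and 5.08 FPKM (interval 0.601 to 1.06), and Myf5 had 7.45 and 6.78 FPKM (interval 0.775 to 1.07). The intervals of Lbx1 and Myf5 held 1. Among muscle fibre genes, Chrna1, an acetylcholine receptor subunit, had 6.202 and 7.17 FPKM, and Actc1, an actin, had 298 and 322 FPKM. The summed muscle level was 535 FPKM and 562 FPKM, and its part in the value of Fgfr4 was not tested.

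Fgfr3, a receptor that restrains growth of cartilage, had 4.90 and 5.10 FPKM, a ratio of 1.04 (interval 0.907 to 1.19). Fgfrl1 binds FGFs but lacks a kinase domain. It had 16.8 and 18.8 FPKM, a ratio of 1.12 (interval 1.02 to 1.22). Among the 5 receptors, 2 intervals thus lay above 1, 1 below and 2 held 1, beside 10.8% above and 10.3% below of all measured genes.

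The transcript rows divided the receptors further. The row with the IIIb exon of Fgfr2 had 7.62 and 8.37 FPKM, a ratio of 1.10, and the row with the IIIc exon had 12.4 and 15.9 FPKM, a ratio of 1.27. The IIIc row therefore held 62.0% (control) and 65.5% (mutant) of the Fgfr2 FPKM. Both Fgfr2 models also differ in 2 exons of 267 and 78 bases that the IIIb model lacks, so this split does not rest on the IIIb and IIIc exons alone. For Fgfr3 the IIIb row had 2.34 and 2.04 FPKM, and the 4 rows with the IIIc exon together had 2.56 and 3.06 FPKM. The IIIc rows held 52.3% (control) and 60.0% (mutant) of the Fgfr3 FPKM. In both receptors the IIIc share was higher in the mutant library, by values that the authors' tool estimated and for which no interval can be given.

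For Fgfr3 the division among rows of 1 form differed between the libraries. The IIIc row NM_001205270 went from 1.15 FPKM (control) to 0.000395 FPKM (mutant), while NM_008010 went from 0.304 to 2.38 FPKM. These rows share most of their exons, and reads are assigned among such rows by estimation. With only its most abundant row kept, the log2 ratio of Fgfr3 was -0.13 in place of 0.05.

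For Fgfr1 the rows differ at the end of an exon just after the first immunoglobulin-like domain. The 90-base exon is shown with its last 6 bases in capitals, which the 84-base version lacks.
Fgfr1 exon: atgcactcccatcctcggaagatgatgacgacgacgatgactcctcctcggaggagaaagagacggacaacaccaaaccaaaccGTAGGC
Rows with the long end had 37.8 and 41.6 FPKM, or 65.5% and 70.4% of the Fgfr1 FPKM. The row with the short end had 19.9 and 17.5 FPKM. The row NM_001079909, which has the long end but lacks an exon of 267 bases, had 0.767 and 1.46 FPKM, so the form without that exon was a small part of Fgfr1 in both libraries. For Fgfrl1, the row with an exon of 273 bases had 11.4 and 15.4 FPKM and the row without it had 5.45 and 3.40 FPKM. The longer Fgfrl1 row held 67.6% (control) and 81.9% (mutant) of the gene's FPKM.

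**Figure D4:**
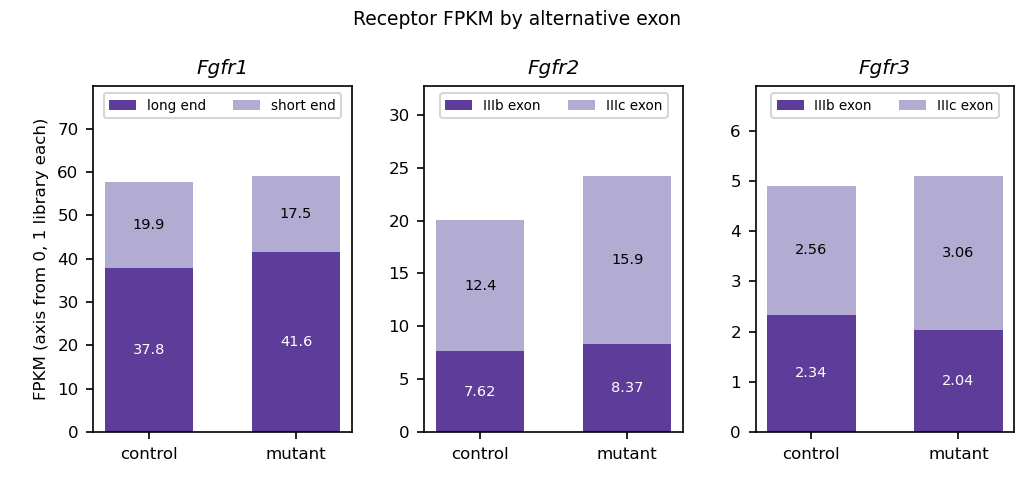
Stacked bars of FPKM (axes from 0, a scale for each gene) for the rows of Fgfr1, Fgfr2 and Fgfr3 grouped by alternative exon, with 1 library per bar. The IIIc part of Fgfr2 goes from 12.4 to 15.9 FPKM and that of Fgfr3 from 2.56 to 3.06 FPKM, while the long-end part of Fgfr1 goes from 37.8 to 41.6 FPKM.

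The IIIb forms and Fgf9 are known from epithelium, and epithelial markers were lower on balance. Of 14 epithelial genes, all measured, 13 had ratios under 1, 4 had intervals below 1 and the median log2 ratio was -0.13. Their summed level was 175 FPKM (control) and 156 FPKM (mutant). The basal keratins Krt5, at 29.7 and 23.6 FPKM, Krt14, at 11.03 and 9.35 FPKM, and Krt15, at 35.3 and 30.1 FPKM, were lower, and Krt8, a keratin of simple epithelium, had 7.12 and 8.06 FPKM. Esrp1 and Esrp2, the splicing factors that favour the IIIb exon in epithelium, had 7.19 and 6.71 FPKM and 3.43 and 3.36 FPKM, with intervals of 0.829 to 1.05 and 0.796 to 1.205. The part of the epithelial share of the tissue in the values of Fgf9 and of the receptor forms was not tested.

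Cartilage genes, unlike Fgf18, had higher levels in the mutant library. All 13 were measured and all 13 had ratios over 1. In the mutant library 11 of the 13 were at least 1.2-fold higher, against 4.77% of all measured genes. The median log2 ratio of the 13 was 0.41, and their summed level was 235 FPKM and 322 FPKM. Sox9, the master factor of cartilage, had 13.6 and 23.1 FPKM, and the cartilage matrix genes Col9a1, Col9a3 and Matn4 had ratios of 1.54, 1.45 and 1.63, the latter 2 in models that overlap another gene. The part of cartilage RNA in the values of Fgf18, Fgfr2 and Fgfr3 was not tested.

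The Sprouty proteins are intracellular inhibitors of receptor tyrosine kinase signalling that FGF itself induces. Spry2 had 18.0 and 21.7 FPKM, a ratio of 1.21 (interval 1.10 to 1.33). Spry1 had 15.9 and 15.2 FPKM, a ratio of 0.953 (interval 0.863 to 1.05). Spry2 was the higher of these 2 genes in both libraries. Spry4 had 6.85 and 6.07 FPKM, a ratio of 0.886 (interval 0.791 to 0.992). Spry3, listed on an unplaced part of the X chromosome, had the lowest level at 0.861 and 1.30 FPKM from about 71 and 130 reads, a ratio of 1.505 (interval 1.12 to 2.04). The 4 Sprouty genes were thus split, with Spry2 and Spry3 higher and Spry4 lower in the mutant library, and their summed level was 41.7 and 44.3 FPKM. Spry3 reached 1 FPKM in the mutant library only.

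The Spred proteins are relatives of Sprouty that hold RAS signalling in check at the membrane. Spred1 had 31.2 and 31.8 FPKM, the highest level among the inhibitors, with a ratio of 1.02 (interval 0.957 to 1.09). Spred2 had 19.0 and 18.7 FPKM, a ratio of 0.986 (interval 0.907 to 1.07). Spred3 had 3.68 and 4.60 FPKM, a ratio of 1.25 (interval 1.07 to 1.46). Among the Spred genes the interval therefore left 1 only for Spred3, the one with the lowest level.

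Dusp6 encodes a phosphatase that inactivates ERK and is widely used as a readout of FGF signalling (mm9 chromosome 10, 98725865 to 98730123). It had 23.4 FPKM from about 1236 reads and 20.9 FPKM from about 1352 reads, a ratio of 0.893 (interval 0.826 to 0.965). Il17rd, also called Sef, is a membrane inhibitor of FGF signalling (mm9 chromosome 14, 27852187 to 27920472). It had 9.31 and 10.7 FPKM, a ratio of 1.15 (interval 1.08 to 1.24). These inhibitors, both induced by FGF, thus lay on opposite sides of 1.

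The transcription factors Etv1, Etv4 and Etv5 are direct readouts of FGF signalling in many embryonic tissues. Etv4 had 16.4 FPKM from about 723 reads and 13.5 FPKM from about 730 reads, a ratio of 0.825 (interval 0.743 to 0.915). Etv5 had 21.0 and 21.9 FPKM, a ratio of 1.05 (interval 0.977 to 1.12). Etv1 had 6.54 and 7.60 FPKM, a ratio of 1.16 (interval 1.04 to 1.30). The main transcript row of Etv1 had 6.54 and 7.01 FPKM, a ratio of 1.07, and its other row had 3.29e-05 and 0.591 FPKM. The 3 factors thus had 1 ratio under 1 and 2 over it, and their summed level was 43.9 and 43.1 FPKM. Over the 12 inhibitors and transcription factors, 5 intervals lay above 1, 3 below 1 and 4 held 1. Spry3, at 1 FPKM or more in the mutant library only, was among the 5. Of all measured genes, 10.8% had intervals above 1 and 10.3% below.

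Heparan sulfate and other cofactors set how FGFs reach their receptors. Of 28 such genes 24 were measured, with 13 ratios over 1, 11 under 1 and a median log2 ratio of 0.03. Intervals lay above 1 for 7 and below 1 for 5, against 10.8% and 10.3% of all measured genes, so this list too had genes on both sides. Flrt3, a membrane protein that binds FGF receptors, had 15.3 and 20.4 FPKM, a ratio of 1.33 (interval 1.23 to 1.43), in a model that overlaps another gene. Hs6st2, which adds 6-O-sulfate to heparan sulfate, had 16.0 and 11.2 FPKM, a ratio of 0.697 (interval 0.639 to 0.759). The core proteins Sdc3 and Gpc1, the latter in a model that overlaps another gene, had ratios of 1.17 and 0.869. Klotho (Kl) and Klb, which hormone-like FGFs need as coreceptors, stayed at or under 0.126 FPKM.

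Genes listed for the relay of the signal from receptor to ERK differed about as often as measured genes in general. The list also held genes outside that relay, such as ERK-activated kinases. All 28 were measured, with a median log2 ratio of 0.01. None was at least 1.2-fold higher in the mutant library and 1 was as much lower, against 4.77% and 3.46% of all measured genes. Intervals lay above 1 for 5 of the 28 and below 1 for 1, against 10.8% and 10.3% of all measured genes. The lower gene was Rps6ka1, an ERK-activated kinase, with 9.68 and 7.84 FPKM and a ratio of 0.810 (interval 0.720 to 0.911). The adaptor Gab1 had a ratio of 1.12 and Mapk3, which encodes ERK1, a ratio of 1.10.

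Of 15 other genes that respond to ERK, 10 were measured, with 2 ratios over 1, 8 under 1 and a median log2 ratio of -0.04. Intervals lay above 1 for 1 of them and below 1 for 3. Mycn, a growth-promoting transcription factor, had 15.5 and 12.8 FPKM, a ratio of 0.825 (interval 0.746 to 0.914). The early response gene Ier2 had a ratio of 0.825, Dusp9 0.868 and Phlda1 0.884, the last with an interval of 0.761 to 1.03. Egr1, an early response transcription factor, was the gene with an interval above 1, at 2.99 and 3.74 FPKM, a ratio of 1.25 (interval 1.03 to 1.52).

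**Figure D5:**
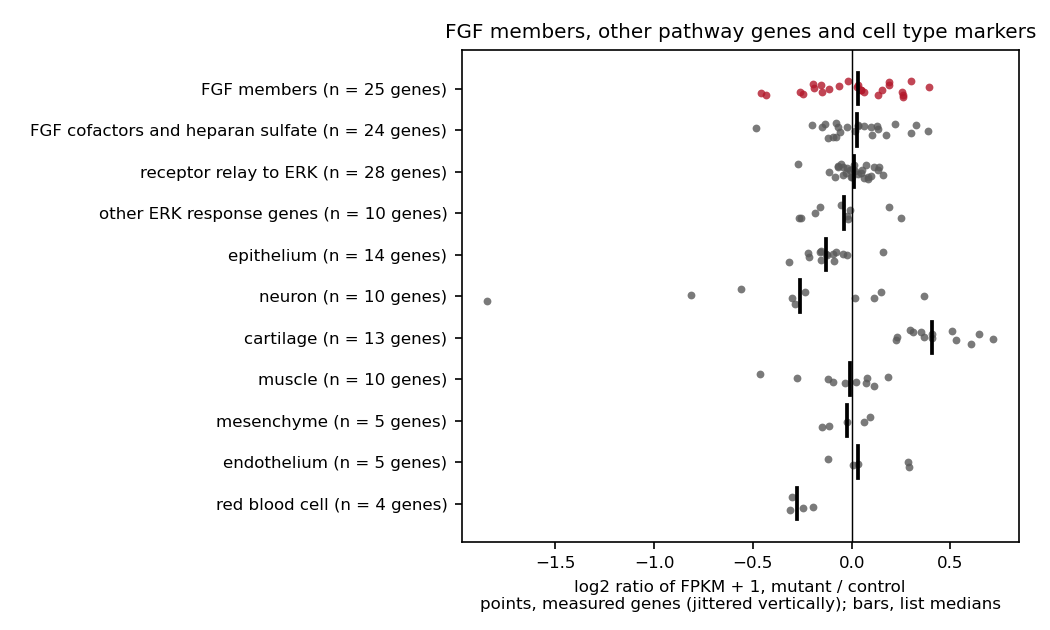
The log2 ratio of mutant over control FPKM plus 1 for each measured gene (points, spread vertically for legibility) of the FGF genes, 3 further pathway lists and 7 lists of cell type markers, with medians as bars. The FGF median is 0.03 and the cartilage genes, all to the right of 0, have a median of 0.41.

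Mesenchyme, endothelium and red blood cell markers complete the comparison. Over the 5 mesenchyme genes the median log2 ratio was -0.02, with Pdgfra at 75.3 and 80.3 FPKM, Twist1 at 73.4 and 76.6 FPKM, Col1a1 at 216 and 195 FPKM and Col3a1 at 219 and 202 FPKM. The 5 endothelial genes had a median of 0.03, with ratios of 1.24 for Pecam1, 1.27 for Erg, 1.02 for Cdh5 and 0.911 for Kdr. The 4 measured red blood cell genes had ratios under 1 with a median log2 ratio of -0.28, and 3 had intervals below 1, with ratios of 0.810 for Hbb-y, 0.841 for Hba-x and 0.796 for Hbb-bh1. The part of these cells in the values of the FGF genes was not tested.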

How the data were processed

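RNA was amplified with the NuGEN Ovation RNA-Seq v2 kit, per the labels' protocols. The build mm9, TopHat 1.4.1 and Bowtie 0.12.7 stand in the submitters' processing notes. The deposited FPKM values, per the file headers, are given for RefSeq transcripts in the layout of a Cufflinks isoform table. The deposited coverage, per the file headers, is a depth signal for each transcript that is not scaled for library size. No source used here gives the quantifier's version, the strand setting or the read length, so reads of overlapping or antisense genes cannot be told apart.

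Rows were summed per symbol, and genes with 1 FPKM or more in either library and status OK in every row were kept. The log2 ratio used FPKM plus 1, which understates differences of low genes, while plain ratios used the FPKM. Reads were estimated as coverage times length over 47.4 bases per read, the step between the lowest values, and the mutant library was 1.22 times deeper. The 95% intervals are exact conditional (Clopper-Pearson) intervals of 2 counts, centred on the FPKM ratio. Amplified reads are not independent molecules, so intervals and floors of 3 reads cover counting error only. Interval code was tested on simulated data. Positions are mm9, counted from 1, as 3284 rows of a single exon showed that the file starts count from 0. The annotation at hand was of GRCm38 and gave exon sequences only, no positions. Python 3.11.15, pandas 2.3.3 and scipy 1.17.1 were used.

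The members and gene lists were chosen with earlier results of these data known. Every member is named, as are, per list, up to 4 genes with the largest log2 ratio at 5 FPKM or more, plus Osr1, Esrp1 and Esrp2. An item that this rule would name is not reported here. Scn3a, Snap25, Pax3, Egr1, Kl and Klb were named after their values were seen. Alternatives varied the pseudocount, filter, scale, fold and choice of rows.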

Additional observations from a re-analysis of the deposited data

How the results depend on the processing

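The count of FGF genes at least 1.2-fold higher or lower in the mutant library (2 and 2) moved with the settings. With a pseudocount of 0.1 FPKM it was 5 higher and 4 lower, with 5 FPKM it was 0 and 0, and rescaled to TPM it was 5 and 4 (Fgfr2, Spry2 and Spred3 joined Fgf7 and Spry3; Etv4 and Fgf11 joined Fgf15 and Fgf18). Without the filter on low values 4 were higher, with Fgf8 and Fgf22 added. At 5 FPKM or more in either library 0 were higher and 1 lower. With only the most abundant row of each gene 4 were higher, with Fgfr2 and Fgfrl1 added, and without models that overlap another gene 1 was. At a fold of 1.5 there were 0 and 0. With the median over all measured genes set to 0 there were 2 higher and 3 lower, with Etv4 added. With 1 FPKM required in both libraries, a setting chosen after seeing the data, there were 1 and 1. The median log2 ratio of the FGF genes stayed between 0.02 and 0.04 under these settings. Osr1 had a log2 ratio of -1.40 in place of -1.57 with a pseudocount of 5 FPKM. Of 150 recomputed values of single members, 146 lay inside the counting interval and 4 outside it. Outside were Fgf15 with a pseudocount of 0.1 FPKM (-0.82 in place of -0.44) and 3 genes with only their most abundant row. These 3 were Fgfr1 (0.12 in place of 0.03), Fgfrl1 (0.41 in place of 0.15) and Fgfr3 (-0.13 in place of 0.05). The sign was kept by 149 values, and the exception was that value of Fgfr3. The share of the Fgfr2 IIIc row was 63.6% and 67.0% when counted in reads. No paired analysis was possible because there was 1 library per genotype, and no library could be left out.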
